A study of Mus musculus with 4 samples.

Results

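The 10 genes described here, H2-K1, H2-D1, B2m, H2-Q7, Tap1, Tap2, Tapbp, Psmb8, Psmb9 and Nlrc5, belong to the pathway that presents peptides on MHC class I molecules. They were chosen by symbol, as the rows of the count matrices that carry these names, and all 10 were present among the 31053 genes of each matrix. The samples were CD45 positive cells sorted from the spinal cord of C57BL/6 mice of both sexes, with 1 library for each of 4 conditions. These were uninjured (sham) cord dissociated by the standard protocol, sham cord dissociated with actinomycin D (ActD), which blocks new transcription while the tissue is digested, and contused cord at 3 and 14 days post injury (dpi), both dissociated with ActD. The labels tie no cell to an animal and give no age, so a difference between libraries can also be one between animals or between preparations, and no test between conditions was possible. Per the file headers, the sham standard and 3 dpi matrices were written by an earlier release of the counting software than the sham ActD and 14 dpi matrices, so the release cannot be told apart from the comparisons of 3 dpi with sham ActD and 14 dpi, or from that of the sham libraries with each other.

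MHC class I molecules show short peptides from proteins made inside a cell to CD8 T cells. The proteasome cuts these peptides, the transporter made of Tap1 and Tap2 moves them into the endoplasmic reticulum, and tapasin (Tapbp) helps to load them on a heavy chain, such as H2-K1 or H2-D1, that is paired with beta-2 microglobulin (B2m). Interferons raise nearly all of these genes, exchange constitutive catalytic subunits of the proteasome for inducible ones such as Psmb8 and Psmb9, and act in part through Nlrc5, a transcriptional activator of class I genes. H2-Q7 encodes a non-classical heavy chain. Microglia, the resident macrophages of the cord, are known for low surface class I at rest and for higher levels under interferon.

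B2m lies on chromosome 2 (GENCODE M21, GRCm38, bases 122147686 to 122153083) and Nlrc5 on chromosome 8 (94434356 to 94527272), while the other 8 genes lie in the MHC region of chromosome 17. There Psmb9 (34181987 to 34187764, minus strand) and Tap1 (34187553 to 34197225, plus strand) start head to head, followed by Psmb8 (from 34197721) and Tap2 (from 34203527). RefSeq windows from 250 bases before to 30 bases after the annotated start (GRCm38.p6) were at hand for 8 of the genes, and 5 of them are shown because the levels of these genes set the patterns below. Capitals mark matches, on either strand, to 5 short motifs that stand for factors known to act on class I genes: GAAA, any 2 bases and GAAA for interferon response elements, TTC, any 3 bases and GAA for STAT sites, GGG, any 2 bases and TTCCC for NF-kB sites, CCAAT for NF-Y and TGACG for CREB family factors. The heavy chains H2-K1 (chr17:34000318-34000597, minus strand) and H2-D1 (chr17:35262844-35263123, plus strand), B2m (chr2:122147437-122147716, plus strand), Tap1 (chr17:34187306-34187585, plus strand) and Psmb8 (chr17:34197945-34198224, plus strand) read, 5′ to 3′:
H2-K1: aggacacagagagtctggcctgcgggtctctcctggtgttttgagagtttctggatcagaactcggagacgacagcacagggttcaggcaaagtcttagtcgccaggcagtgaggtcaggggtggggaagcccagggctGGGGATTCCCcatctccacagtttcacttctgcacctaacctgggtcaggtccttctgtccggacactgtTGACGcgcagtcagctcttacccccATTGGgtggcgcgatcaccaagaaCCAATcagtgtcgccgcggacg
H2-D1: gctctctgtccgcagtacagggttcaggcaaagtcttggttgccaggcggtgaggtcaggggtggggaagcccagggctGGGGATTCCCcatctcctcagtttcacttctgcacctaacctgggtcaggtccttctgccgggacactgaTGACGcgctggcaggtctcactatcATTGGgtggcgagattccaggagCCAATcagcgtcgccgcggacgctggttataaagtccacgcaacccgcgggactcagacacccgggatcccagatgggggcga
B2m: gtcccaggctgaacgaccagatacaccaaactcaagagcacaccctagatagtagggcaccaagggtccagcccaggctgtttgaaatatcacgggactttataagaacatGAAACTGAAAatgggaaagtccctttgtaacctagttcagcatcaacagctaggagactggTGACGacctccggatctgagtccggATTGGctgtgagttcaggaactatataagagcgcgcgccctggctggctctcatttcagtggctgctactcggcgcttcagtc
Tap1: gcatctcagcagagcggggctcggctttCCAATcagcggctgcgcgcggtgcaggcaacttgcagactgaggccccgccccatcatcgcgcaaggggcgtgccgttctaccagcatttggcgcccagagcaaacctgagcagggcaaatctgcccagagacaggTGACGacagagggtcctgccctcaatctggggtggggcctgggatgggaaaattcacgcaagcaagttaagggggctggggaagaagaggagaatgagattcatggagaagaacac
Psmb8: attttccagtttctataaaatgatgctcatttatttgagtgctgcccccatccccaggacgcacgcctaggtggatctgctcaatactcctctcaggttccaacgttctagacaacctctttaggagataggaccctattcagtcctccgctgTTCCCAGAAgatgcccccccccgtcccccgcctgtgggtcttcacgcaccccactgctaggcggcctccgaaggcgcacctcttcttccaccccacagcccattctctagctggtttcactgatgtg

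H2-K1, H2-D1 and H2-Q7 each held the NF-kB motif, which 1.65% of the 32851 windows of the same length held. Of the 8 windows, 7 held CCAAT and 6 held TGACG, against 36.1% and 19.9% of all windows. The fixed letters of the interferon motif were matched in B2m alone (3.28% of all windows) and those of the STAT motif in Psmb8 alone (7.83%). Psmb8 was also the window without CCAAT. The windows of Tap1 and Psmb9 shared 275 bases, so each match in one was also a match in the other. No motif match overlapped another. These matches describe the letters and do not show binding. A window without a match can still hold a site with other letters, so no match does not show that a site is absent.

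After filtering, the libraries held 5035 (sham standard), 2135 (sham ActD), 8214 (3 dpi) and 9078 cells (14 dpi), with 25545623 to 94209349 UMIs (unique molecular identifiers, each marking 1 captured RNA molecule). Cells were clustered without these 10 genes and without the related gene lists used below, and each cluster was named in each library from marker genes. Microglia numbered 2656, 1689, 933 and 4048 cells in this order of libraries and macrophages 122, 125, 3284 and 489. UMIs were summed over the cells of a class in a library and are given as CPM, the share of a gene among all UMIs of that class on the counts-per-million scale, with exact Poisson intervals at 95% that cover counting error only. Levels are compared between classes or libraries within a gene and not between genes, because the method counts molecules from their 3′ ends.

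The 10 genes were not alike in their spread over cell classes. Among the class sums at 14 dpi H2-K1 was highest in T and NK cells. It stood at 2937 CPM in T cells and 2808 CPM in NK cells, whose intervals overlapped, then at 2546 CPM in gamma-delta T cells. Monocytes (1483 CPM) and dendritic cells (1452 CPM) came next and overlapped, followed by microglia (1002 CPM) and macrophages (984 CPM), which overlapped too. B cells (819 CPM), mast cells or basophils (649 CPM), myeloid progenitors (518 CPM) and neutrophils (229.9 CPM) were lower, each outside the interval of its neighbour. The B cell sum pooled clusters that were not alike. H2-K1 stood at 1282 CPM (1212 to 1355) in 288 mature B cells, above microglia, and at 688 and 1120 CPM in 271 and 59 cells of other clusters. The dendritic sum pooled 303 cells of 1 cluster, with H2-K1 at 1192 CPM, and 47 cells of a cluster led by Ccr7, with H2-K1 at 3529 CPM (3341 to 3724), above the T cells.

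B2m, the light chain shared by the heavy chains, had another order. Microglia held the highest class sum at 14 dpi, 3629 CPM (3612 to 3647), above gamma-delta T cells at 2918 CPM (2789.5 to 3050.4), T cells, monocytes and macrophages, which overlapped in this order. The 47 dendritic cells of the Ccr7 cluster were higher, at 5120 CPM (4893 to 5354), and the 303 others lower, at 1818 CPM. At 3 dpi microglia were lowest of 8 classes with 916 CPM, against 2681 CPM in dendritic cells, which in that library were all of the Ccr7 cluster. H2-K1, H2-D1 and Nlrc5 were also lowest in microglia in that library.

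H2-Q7 was highest in T, NK and gamma-delta T cells among the class sums at 14 dpi. It stood at 1075 CPM in T cells, 808 CPM in NK cells and 630.1 CPM in gamma-delta T cells, against 54.7 CPM in microglia, 49.9 CPM in macrophages and 15.8 CPM in neutrophils. The Ccr7 dendritic cells of that library were at 869 CPM (777 to 968). Of the 50-base words in the last 500 bases of its transcripts, 11.8% also occurred in transcripts of other genes (H2-Q5 and H2-Q10), so its counts are less certain than those of B2m, Tap2, Psmb8, Psmb9 and Nlrc5, which shared none. H2-K1 shared 9.6% and H2-D1 8.92%, partly with each other.

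The inducible proteasome subunits were highest in dendritic cells at 3 dpi. Psmb8 reached 1323 CPM (1218 to 1434) there, beside 528 CPM in T cells and 261 CPM in microglia. Psmb9 reached 288 CPM (240.2 to 342) in these 71 dendritic cells, against 131.8 CPM in T cells and 32.1 CPM in macrophages. At 14 dpi T cells (889 CPM) and dendritic cells (879 CPM) overlapped for Psmb8, with 1325 CPM in the Ccr7 cluster and 823 CPM in the other dendritic cells. Nlrc5 was captured at few UMIs, with 80.2 CPM (71.0 to 90.2) in T cells and 9.99 CPM (9.09 to 10.9) in microglia at 14 dpi.

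**Figure D1:**
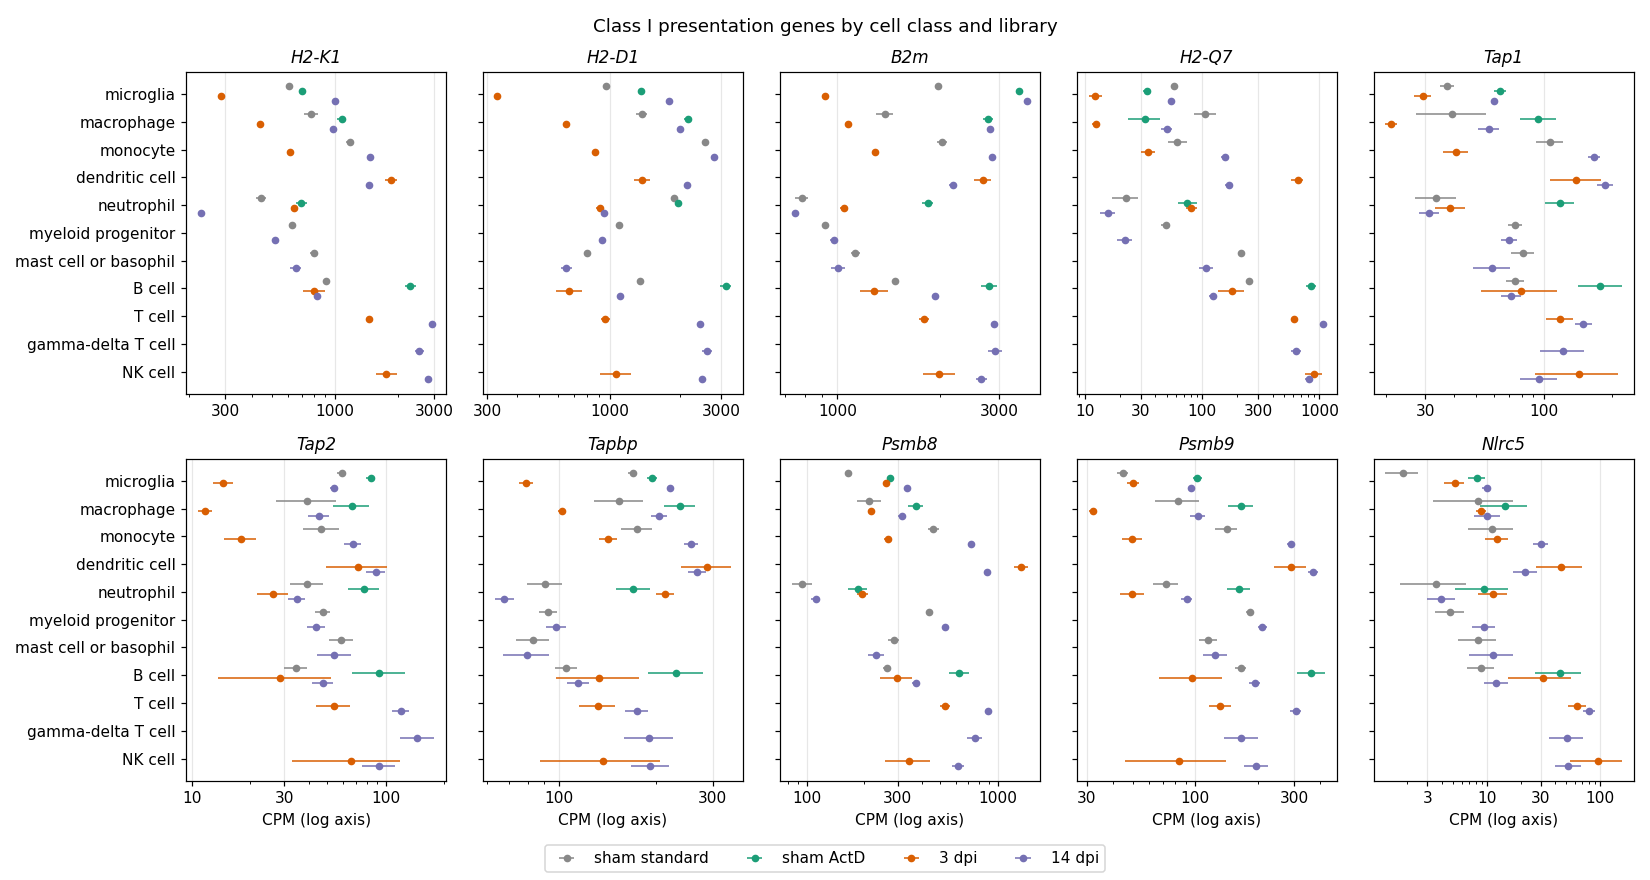
Level of each gene (CPM, log axis) by marker-defined class, for classes with at least 50 cells in a library. Points are class sums of 1 library and bars their 95% Poisson intervals. Among the 14 dpi points H2-Q7 and H2-K1 sit farthest to the right in T and NK cells. The 3 dpi points of microglia, macrophages and monocytes sit to the left of those at 14 dpi.

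Over the 30 sums of named classes with at least 50 cells, the log2 levels of pairs of the 10 genes correlated with r from 0.37 (H2-D1 and Nlrc5) to 0.88 (H2-K1 and H2-Q7), with a median of 0.65 over 45 pairs. The sums share libraries and depth, so this is a description. Of 9816 genes with at least 1000 UMIs, those most like the mean profile of the 10 included the heavy chain H2-T22 (r = 0.89), Dtx3l (0.88), Epsti1 (0.88) and the proteasome activator subunit Psme1 (0.86). Ifi35, Cyld, Sp110, Zufsp and Trim14 followed at 0.84 to 0.81.

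The main time course was lower levels at 3 dpi than in sham ActD or at 14 dpi, in the class sums of microglia and of macrophages. The cells in these sums also differed in their marker levels between the libraries, as given below. In microglia H2-D1 went from 1357 CPM in sham ActD to 331 at 3 dpi and 1788 at 14 dpi. H2-K1 went from 696 to 284 and 1002 CPM. B2m went from 3440.2 to 916 and 3629 CPM. For the heavy and light chains the 3 dpi value was thus the lowest of all 4 libraries, below the standard sham library too, where H2-D1 was at 964, H2-K1 at 603 and B2m at 1985 CPM.

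The genes of peptide transport and loading moved likewise in microglia. Tap1 stood at 64.1, 29.1 and 60.5 CPM in the sham ActD, 3 dpi and 14 dpi libraries. Tap2 fell farther, from 83.6 to 14.5 CPM, and reached 53.8 CPM at 14 dpi. Tapbp was at 194.5, 78.9 and 221.7 CPM. The inducible proteasome subunits divided here: Psmb9 was at 102.3, 49.98 and 95.3 CPM, while Psmb8 was at 273, 261 and 336 CPM. H2-Q7 was at 34.1, 12.3 and 54.7 CPM. Nlrc5 was captured at 8.2 CPM (145 UMIs), 5.2 CPM (100 UMIs) and 9.99 CPM (458 UMIs).

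A gene was called different where the ratio of CPM was at least 2-fold and the pair of sums held at least 200 UMIs, which is a rule of size and not a test. Between 3 dpi and sham ActD microglia, 8 of the 10 genes were at least 2-fold lower and none higher, against 31.2% of the 9314 genes compared that were lower. The median log2 ratio of the 10 was -1.30 and that of all genes -0.53, so part of the shift was shared by genes at large. Tap2 (-2.53, 95% counting interval -2.72 to -2.34), H2-D1 (-2.04, -2.08 to -2.00) and B2m (-1.91, -1.93 to -1.88) lay below over 90% of all genes, at the 2.96, 6.1 and 7.64 percentiles. Psmb8 (-0.06, -0.12 to -0.01) and Nlrc5 (-0.65, -1.03 to -0.27) were not called. With TMM factors of edgeR or with a median of ratios in place of total UMIs, the count was 3 of 10 (H2-D1, B2m and Tap2), beside 15.9% and 14.6% of all genes, and Psmb8 turned to a value above 0. In male cells 4 of 9 and in female cells 8 of 9 genes were lower, beside 30.1% and 31.4% of genes.

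**Figure D2:**
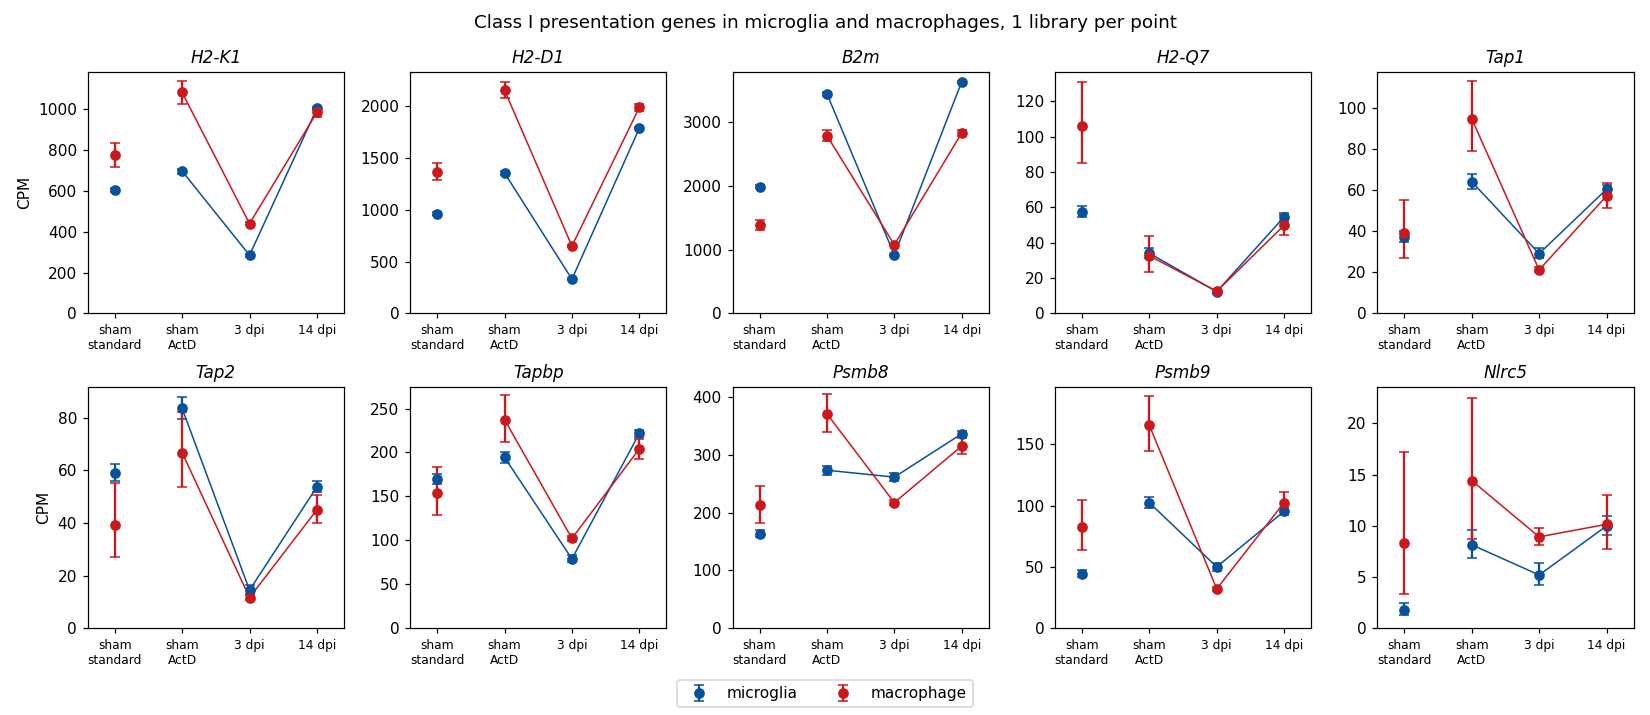
Level of each gene (CPM) in microglia (blue) and macrophages (red), 1 library per point, with 95% Poisson intervals; the lines join the 3 libraries dissociated with ActD. All points at 3 dpi lie below those at sham ActD and 14 dpi, with Psmb8 nearly level in microglia (273, 261 and 336 CPM).

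In macrophages, which in the sham libraries were border cells and at 3 dpi mostly injury-associated cells, 8 of the 10 genes were at least 2-fold lower at 3 dpi than in sham ActD, against 24.6% of 8823 genes. H2-D1 stood at 2156 CPM in sham ActD, 651 at 3 dpi and 1989 at 14 dpi. H2-K1 was at 1080.2, 439 and 984 CPM and B2m at 2785, 1075 and 2827 CPM. Psmb9, at 165 CPM in sham ActD and 32.1 CPM at 3 dpi (log2 ratio -2.36, -2.57 to -2.15), fell more than Psmb8, at 371 and 217 CPM (-0.77, -0.90 to -0.64). The median log2 ratio was -1.38 beside -0.34 for all genes. The border cluster, the only macrophage cluster with cells in all libraries, was named for its sham cells. Its injury macrophage markers summed to 846 CPM in sham ActD and 21006 CPM at 3 dpi, and its border markers to 9308 and 10570 CPM. The part of this change in the ratios was not tested. Within this cluster 4 of 7 genes were lower beside 12.4% of genes, with a median of -1.08 beside -0.05. The count was also 4 of 10 with TMM factors or a median of ratios (10.3% and 11.8% of all genes), and 4 of 10 in male cells (23.3%), where H2-Q7 was at 0.34 (-1.23 to 2.62, with 3 UMIs in 39 sham ActD cells) and Nlrc5 at 0.73 (-1.14 to 3.78, with 2 UMIs).

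Between 14 and 3 dpi the log2 ratios of all 10 genes lay above 0 in microglia and in macrophages, within counting error for macrophage Nlrc5, and 7 of 10 passed 2-fold in each class. In microglia 7 of 10 were at least 2-fold higher, against 9.75% of 9742 genes, with a median log2 ratio of 1.65 beside 0.05 for all genes. H2-D1 (2.44, 2.40 to 2.47) exceeded 99.2% of all genes, H2-Q7 (2.15, 1.96 to 2.35) 98.8%, B2m (1.99, 1.96 to 2.01) 98.3% and Tap2 (1.89, 1.71 to 2.07) 98.1%. Psmb8 was at 0.36 (0.32 to 0.41). This count was 6 to 9 under every other setting tried. In macrophages 7 of 10 were at least 2-fold higher against 12.3% of 9009 genes, with a median of 1.41 beside 0.15. H2-Q7 (1.99), Tap2 (1.95) and Psmb9 (1.67) led, and Nlrc5 was at 0.19 (-0.22 to 0.57), turning to -0.12 with TMM factors, -0.07 with a median of ratios and -0.19 in male cells. Within the border cluster alone 3 of 7 were higher, with 8.43% of genes higher. Its markers changed between these libraries too. From 3 to 14 dpi its border markers went from 10570 to 4158 CPM, its injury macrophage markers from 21006 to 2569 CPM and its microglial markers from 1291 to 5974 CPM. The largest macrophage cluster (1734 and 239 cells) changed too. Its injury macrophage markers went from 60752 to 16256 CPM, its border markers from 5035 to 831 CPM and its microglial markers from 1068 to 6424 CPM. The part of these changes in the ratios was not tested.

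At 14 dpi the genes were near the sham ActD level. None of the 10 differed 2-fold in microglia, where 18.6% of 9784 genes did, and none of 9 in macrophages, where 14.5% of 4351 did. In microglia H2-K1 (0.53, 0.50 to 0.56), H2-Q7 (0.68, 0.55 to 0.81) and H2-D1 (0.40, 0.38 to 0.42) were above and Tap2 (-0.64, -0.73 to -0.54) below the sham ActD level. The median of all genes was -0.53, so relative to it H2-K1 was 1.06 and H2-Q7 1.21 higher. With TMM factors or a median of ratios 2 of 10 genes were at least 2-fold higher, beside 8.42% and 7.81% of all genes.

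**Figure D3:**
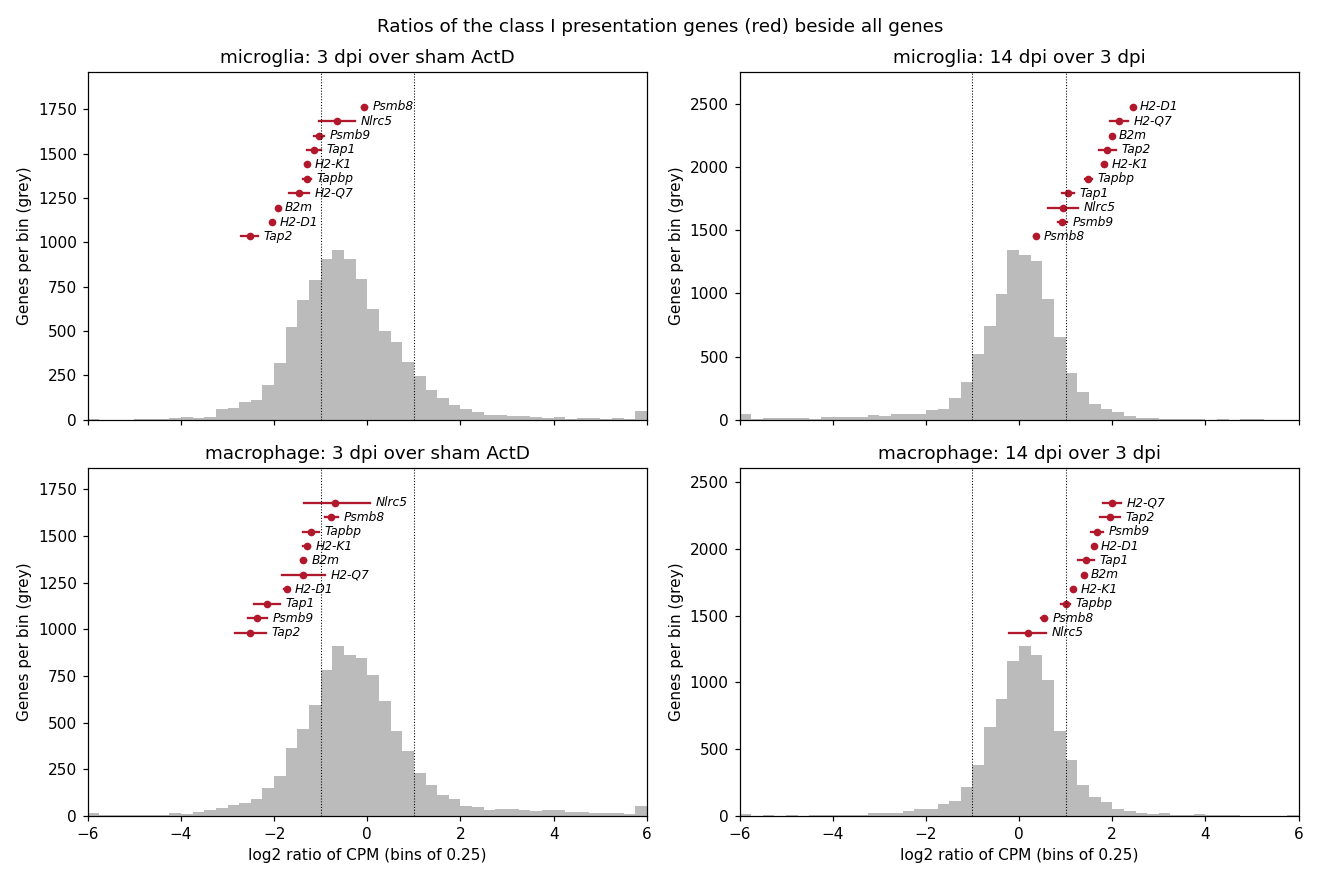
Log2 ratios of the 10 genes (red points, bars are 95% counting intervals) above the histogram of all genes with at least 200 UMIs (grey, bins of 0.25, end bins hold all values beyond 6). For 3 dpi over sham ActD 8 of 10 red points lie past -1 in each class, as do 31.2% of all genes in microglia and 24.6% in macrophages, and microglial Psmb8 lies right of the median of all genes. For 14 over 3 dpi 7 of 10 lie past 1, as do 9.75% and 12.3% of all genes.

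H2-K1, H2-D1 and B2m were lower at 3 dpi than in sham ActD in each of the 4 microglial clusters with at least 20 cells in both libraries, beyond counting error. In the largest cluster, with 1427 sham ActD cells and 218 cells at 3 dpi, H2-D1 was at 1278 and 370.2 CPM and B2m at 3316 and 1179 CPM. Over that cluster 5 of 9 genes were at least 2-fold lower, beside 31.4% of 7632 genes, with a median log2 ratio of -1.01 beside -0.64 for all genes, and Psmb8 was at -0.01 (-0.13 to 0.11). In the cluster whose 3 dpi cells were led by the proliferation genes Mki67 and Top2a (83 and 460 cells) H2-D1 was at 1548 and 315 CPM. That cluster was not of 1 lineage, as its sham standard and 14 dpi cells (203 and 271) were named B cells. In sham ActD its microglial markers summed to 18814 CPM, against 33302 CPM in the largest cluster. Most UMIs of the 10 genes in microglia and in macrophages were those of B2m, H2-D1 and H2-K1, so sums of the 10 mostly follow these genes. Per cell, the 10 genes made up a median of 0.494% of UMIs in sham ActD microglia (quartiles 0.363% and 0.766%), 0.191% at 3 dpi (0.151% and 0.258%) and 0.670% at 14 dpi (0.510% and 0.864%), so the upper quartile at 3 dpi lay under the lower quartile of either other library. Other features moved with this pattern. Microglia at 3 dpi had a median of 18358 UMIs, against 9396 and 10430 in the other ActD libraries. Their summed injury macrophage markers stood at 28156 CPM against 57.7 CPM in sham ActD microglia and 51353 CPM in macrophages of the same library, and their summed microglial markers at 6897 against 30945 CPM. The part of these in the result was not tested. H2-K1, H2-D1 and B2m were lower in microglia than in the macrophages of the 3 dpi library.

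Related genes were taken as lists, with ratios on total UMIs. TMM factors were 1.34 in sham ActD and 0.96 in 3 dpi microglia, and 1.26 and 0.81 in macrophages. They raise every ratio of 3 dpi over sham ActD, so calls of list genes near 2-fold depend on the scaling. Their counts stand beside the same shares of all genes: at 3 dpi against sham ActD 31.2% in microglia and 24.6% in macrophages were lower and 10.2% and 12.2% higher, and 9.75% and 12.3% were higher at 14 than at 3 dpi. Of the heavy chains outside the 10, 5 of 8 compared were lower and none higher in microglia at 3 dpi than in sham ActD (median -1.50), and 6 of 8 were higher at 14 than at 3 dpi. H2-T23, the ligand of an inhibitory NK cell receptor, stood at 319, 35.7 and 271 CPM, a log2 ratio of -3.16 at 3 dpi. H2-M3 was at 76.1, 36.9 and 75.4 CPM, H2-T22 at 37.4, 19.9 and 48.4 CPM and H2-Q4 at 51.7, 13.4 and 34.4 CPM.

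The general chaperones of peptide loading changed less. In microglia 2 of 6 genes of that list were lower at 3 dpi (median -0.74 beside -0.53 for all genes). Calreticulin (Calr) was above its sham ActD level, at 788, 1173 and 886 CPM, and calnexin (Canx) below, at 530.4, 294 and 450 CPM. Hspa5 was at 801, 767 and 880 CPM and Pdia3 at 785, 509 and 675 CPM.

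Proteasome subunits went apart. The constitutive catalytic subunits, which inducible ones such as Psmb8 and Psmb9 can replace, were above their sham ActD level at 3 dpi. Psmb6, the counterpart of Psmb9, stood at 135, 456 and 205 CPM in microglia (log2 ratio 1.76 at 3 dpi) and at 135, 467 and 252 CPM in macrophages. Psmb5, the counterpart of Psmb8, was at 119.8, 233 and 117.5 CPM in microglia, and Psmb7 at 86.2, 137.9 and 68.2 CPM. Of these 3 genes 1 in microglia and 2 in macrophages were at least 2-fold higher at 3 dpi, beside 10.2% and 12.2% of all genes, and 2 and 1 were at least 2-fold lower at 14 than at 3 dpi, beside 10.6% and 7.61%. The other inducible parts Psme1 (363, 272 and 384 CPM), Psme2 (150.2, 152 and 178 CPM) and Psmb10 (129, 117.6 and 116 CPM) stayed within 2-fold, and Psme2b was at 27.3, 6.45 and 15.7 CPM.

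Of the 7 interferon and receptor genes compared in microglia, 3 were at least 2-fold lower at 3 dpi, near the 31.2% of all genes that were, with a median of -0.998 beside -0.53. Ifngr1 stood at 729 CPM in sham ActD microglia, 127 at 3 dpi and 350.4 at 14 dpi, and Ifnar2 at 270.1, 91.7 and 186 CPM. Ifngr2 was at 237, 76.4 and 204 CPM, and the kinase Jak1, at 239.9, 120.1 and 167 CPM, just missed 2-fold (log2 ratio -0.998). Of the 13 regulators of class I transcription outside the 10, 8 were lower in microglia (31.2% of all genes) and 7 of 12 in macrophages (24.6%), among them Irf2 (204, 72.8 and 125 CPM) and Nfkb1 (145, 56.6 and 101 CPM). Irf8 was at 592, 277 and 491 CPM.

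The interferon response list was also lower at 3 dpi than in sham ActD or at 14 dpi. In microglia 18 of 25 genes were lower and 2 higher at 3 dpi (median -1.73), and 23 of 27 were higher and 1 lower at 14 than at 3 dpi (median 1.80). In macrophages 23 of 24 were lower (median -2.87) and 23 of 25 higher (median 1.74). Ly6e stood at 1840 CPM in sham ActD microglia, 473 at 3 dpi and 1256 at 14 dpi, Ifi204 at 144, 60.4 and 191 CPM, Ifi27l2a at 563, 265 and 581 CPM and Bst2 at 339, 198 and 563 CPM. In sham standard microglia Ly6e, at 961 CPM, was above its 3 dpi level. Ifi204 (34.2 CPM), Ifi27l2a (47.8 CPM) and Bst2 (155 CPM) were below theirs, unlike the heavy and light chains. The sexes were unlike too. From sham ActD to 3 dpi the summed list went from 1911 to 1443 CPM in male and from 5317 to 1782 CPM in female microglia.

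MHC class II, which presents peptides from outside the cell to CD4 T cells, did not follow class I in microglia. There 4 of 6 genes were higher and 1 lower at 3 dpi than in sham ActD, with Cd74 at 102, 336 and 277 CPM, H2-Aa at 18.4, 117 and 41.6 CPM, H2-Ab1 at 34.0, 122.6 and 63.6 CPM and H2-DMa at 364, 147 and 244 CPM. In macrophages all 7 were lower (median -5.16), as Cd74 went from 15976 to 446 and 2948 CPM. The macrophages compared were of different clusters, since all 125 in sham ActD were of the border cluster, against 414 of 3284 at 3 dpi. The part of this in the class II ratios was not tested. Immediate early genes, which ActD is used to keep low, were at least 2-fold higher in 15 of 18 cases and lower in 1 at 3 dpi in microglia, with Fos at 6.8, 813 and 12.3 CPM and Junb at 143, 572 and 134 CPM. Jun was at 140.5, 650.4 and 66.7 CPM and Jund at 175, 352 and 118 CPM. Their part in the class I levels was not tested. Of the receptors that bind class I, Pirb was at 41.5, 40.0 and 26.2 CPM in microglia and at 198, 159 and 94.5 CPM in macrophages, and Klrd1 and Cd8b1 stayed under 10 CPM in both classes.

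The 14 dpi microglia included 1 cluster of 49 cells with far higher levels. H2-K1 stood there at 2440.0 CPM, H2-D1 at 3402, B2m at 5148, H2-Q7 at 338, Tap1 at 229.9 and Nlrc5 at 51.3 CPM, against 981, 1778, 3610.5, 51.1, 57.6 and 8.59 CPM in the cluster with the most cells of that library. Its interferon response list summed to 22049 CPM, while the other microglial clusters of the 3 ActD libraries ranged from 1387 to 5714 CPM. A cluster against another is no test, since it was formed from these cells. Neither set of genes was used to form it, but other genes that vary with them could still shape it.

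**Figure D4:**
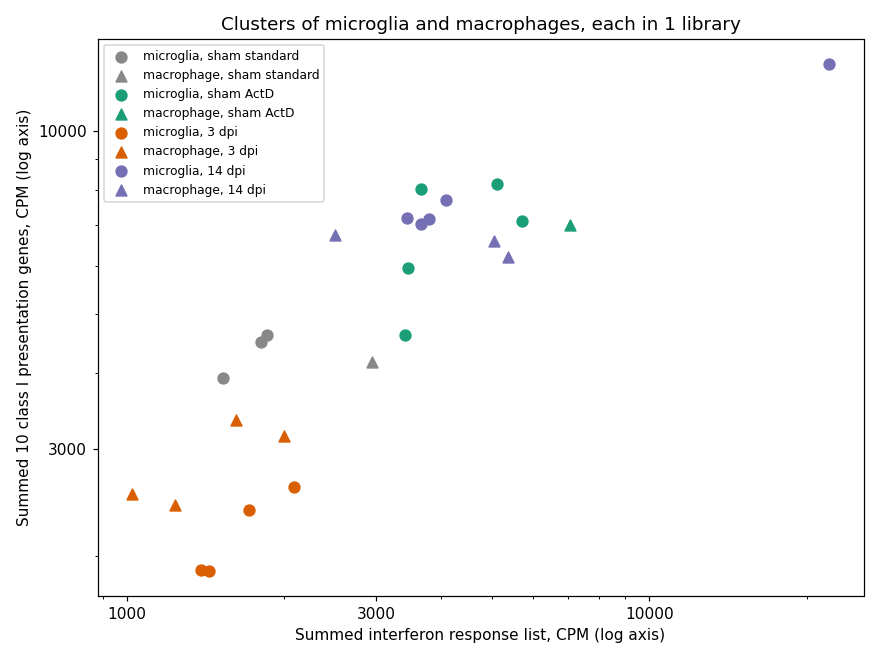
Summed level of the 10 genes against that of the interferon response list (both CPM, log axes) in each cluster of microglia (circles) and macrophages (triangles) with at least 20 cells in a library. Clusters at 3 dpi lie lowest on the axis of the 10 genes, while on the interferon axis those of sham standard microglia lie among them, and the 49-cell cluster at 14 dpi lies alone at the upper right, at 22049 CPM of the interferon list.

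Other classes were compared for the same steps. Monocytes, all of 1 cluster, resembled microglia, with H2-D1 at 862 CPM at 3 dpi and 2795 CPM at 14 dpi and 9 of 10 genes at least 2-fold higher at 14 dpi, against 15% of 5769 genes. The sexes were unlike in this class, with 9 of 9 genes past 2-fold in female cells (median 2.12, 19.2% of genes) and 3 of 7 in male cells (median 0.91, 12.5% of genes). In T cells all 10 were above their 3 dpi level, 4 of them at least 2-fold (5.38% of 3420 genes), with H2-K1 at 1467 and 2937 CPM. In mature B cells, the cluster held by all libraries, H2-K1 stood at 2306 CPM in 64 sham ActD cells, 797 at 3 dpi and 1282 at 14 dpi, with 1088 CPM in sham standard cells.

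In neutrophils the 10 genes summed to 3206 CPM at 3 dpi and 2280.5 CPM at 14 dpi. H2-K1 was at 693 CPM in sham ActD, 638 at 3 dpi and 229.9 at 14 dpi, and Tapbp at 170.3, 214 and 67.8 CPM. Between 14 and 3 dpi 3 of 9 genes were at least 2-fold lower against 33.9% of 5899 genes, and the median of the 9 (-0.48) lay above that of all genes (-0.66), so the count was that of genes at large. Against sham ActD 7 of 9 were at least 2-fold lower at 14 dpi, beside 3.25% of 4806 genes (median -1.30 beside 0.10). This was not so in all parts of the class. In female cells (65 at 14 dpi and 34 in sham ActD) 0 of 5 were lower, beside 3.42% of 585 genes (median -0.32 beside 0.05). By cluster, 8 of 8 were lower in 1 (597 and 59 cells, 2.87% of genes) and 2 of 5 in another (327 and 39 cells, 3.83% of genes). Neutrophil marker genes summed to 422183, 55142 and 412619 CPM in the 3 ActD libraries, and the CPM of all other genes are relative to totals that include them. Their part in the result was not tested. Within the cluster that held 1493 of the 3 dpi cells, 6 of 7 genes were above their 3 dpi level in the 295 cells of 14 dpi, and 3 of the 7 at least 2-fold, beside 9.07% of genes. There H2-D1 went from 860 to 2995 CPM (1.80, 1.72 to 1.88) and H2-K1 from 639 to 831 CPM (0.38, 0.25 to 0.51), while Tapbp went from 217 to 162 CPM (-0.43, -0.72 to -0.15). The dendritic cells of the 3 dpi library were all of the Ccr7 cluster, while 303 of 350 at 14 dpi were of another, whose 448 cells at 3 dpi stayed unnamed. Over the whole class 5 of 9 genes were below and 4 above their 3 dpi level at 14 dpi, and only H2-Q7, at 650.1 and 170.2 CPM, differed 2-fold (8.54% of 2599 genes were lower). Within the Ccr7 cluster (71 and 47 cells) all 7 genes compared were above their 3 dpi level, 1 of them at least 2-fold, beside 6.59% of genes.

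The sham libraries differ in dissociation protocol, and among the classes compared here the fewest genes passed 2-fold between them in microglia. Between sham standard and sham ActD, 1 of 9 genes was at least 2-fold lower in microglia, against 19.1% of 9118 genes, and the median of the 9 (-0.50) was close to that of all genes (-0.55). Psmb9 was lower (44.6 and 102.3 CPM, log2 ratio -1.20, -1.31 to -1.08), B2m was at -0.79 (-0.81 to -0.78) and H2-Q7 was the gene above 0 (57.7 and 34.1 CPM, 0.76). Nlrc5 was not compared because it had 37 and 145 UMIs. With TMM factors the 1 call was H2-Q7, as higher. In macrophages 2 of 6 genes were lower, beside 9.31% of 1428 genes, namely B2m (1381 and 2785 CPM) and Psmb9 (82.4 and 165 CPM). All 6 lay below 0 there, with a median of -0.73 beside -0.28 for all genes. H2-Q4, a close relative of H2-Q7, was above its ActD level in microglia (112.1 and 51.7 CPM). In B cells 8 of 9 genes were lower in sham standard, beside 5.47% of 4482 genes (median -1.25 beside 0.06), with 64 sham ActD cells. These were all of the mature B cell cluster, while the sham standard cells included 203 and 45 cells of other clusters. Within the mature cluster 5 of 8 genes were lower, beside 4.51% of 2375 genes (median -1.15 beside -0.07). In monocytes 4 of 8 were lower, beside 7.82% of 1663 genes (median -0.99 beside -0.01, 27 sham ActD cells). In neutrophils 3 of 8 were lower, beside 7.37% of 2021 genes (median -0.97 beside 0.01).

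Within microglia the sexes differed most in the sham ActD library. A cell was called male with UMIs of a Y-linked gene and none of Xist, and female in the reverse case. In sham ActD microglia the summed 10 genes stood at 4328 CPM in 629 male cells and 7842 CPM in 759 female cells. In the sham standard library they were at 4278 and 3945 CPM, so in CPM the male sums were close and the female sums were not. Against genes at large both sexes differed. For sham standard over sham ActD the median log2 ratio of the 9 genes compared was -0.09 in male and -0.92 in female cells. The medians of all genes were -0.51 and -0.49. The sums were 1937 and 2083 CPM at 3 dpi (440 and 138 cells) and 6577 and 8068 CPM at 14 dpi (1435 and 1585 cells). The log2 ratio of male over female was -0.86 in sham ActD, -0.29 at 14 dpi, -0.11 at 3 dpi and 0.12 in sham standard, with a mean of -0.29 ± 0.42 (SD, n = 4 libraries, exact two-sided sign-flip test p = 0.375). The 4 libraries are of different conditions, so this SD is not a spread between replicates. With 4 libraries this test cannot go below 0.125, and nothing is concluded from it.

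In sham ActD and at 14 dpi each of the 10 genes was lower in male than in female microglia beyond counting error. At 3 dpi all 10 ratios were below 0, but only those of H2-Q7, Tap2, Psmb8 and Psmb9 had intervals that left out 0, with H2-D1 at -0.06 (-0.16 to 0.04). The differences in sham ActD were largest for Nlrc5 (-2.95, -3.94 to -2.09), H2-Q7 (-1.79, -2.12 to -1.48) and Tap1 (-1.37, -1.59 to -1.16), and smallest for Tapbp (-0.18, -0.28 to -0.07). H2-K1 was at -1.10 and H2-D1 at -1.15. The interferon response list moved with them, at 1911 CPM in male and 5317 CPM in female sham ActD microglia, 1635 and 1565 CPM in sham standard, 1443 and 1782 CPM at 3 dpi and 2512 and 5160 CPM at 14 dpi. Per cell, the female sham ActD microglia were spread widely, with quartiles of 0.494% and 0.941% of UMIs, against 0.306% and 0.478% in male cells. The widest ratios were found at 14 dpi in other classes. Neutrophils were at 1822 CPM in 543 male and 4342 CPM in 65 female cells (log2 ratio -1.25). Monocytes were at 5574 and 13070 CPM (249 and 227 cells, -1.23). In sham ActD macrophages were at 4555 and 8345 CPM (39 and 63 cells, -0.87). The neutrophil clusters at 14 dpi were unlike, with H2-D1 at 795 CPM in 597 cells and 2995 CPM in 295 cells. The part of the clusters in the neutrophil ratio was not tested. Animals cannot be told apart within a sex, so a difference between single animals and one between the sexes cannot be told apart here.

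**Figure D5:**
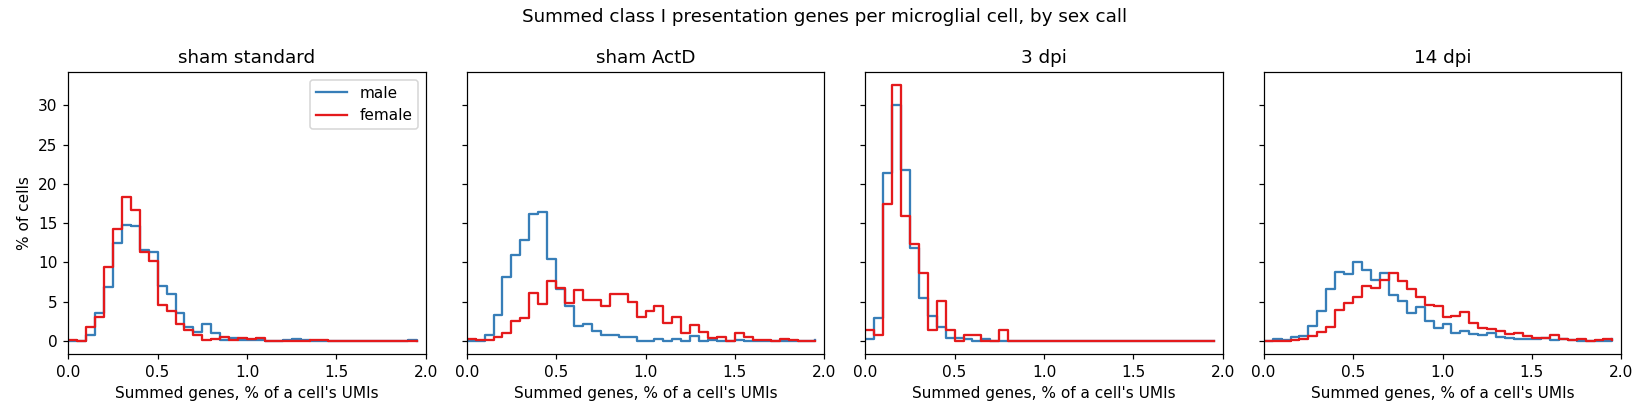
Share of a cell's UMIs taken by the 10 genes (x axis, %) in microglia called male (blue) and female (red), as the percentage of cells per bin of 0.05 (y axis), by library. The curves overlap in the sham standard and 3 dpi libraries, and the female curve lies to the right in sham ActD (median 0.707% against 0.395%) and at 14 dpi (0.759% against 0.599%).

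Over all cells of each class, the sum of the 10 genes differed between macrophages and microglia of the same library by at most 0.37 on the log2 scale. B2m, H2-D1 and H2-K1 made up most of this sum. The log2 ratio of macrophages over microglia was 0.03, 0.16, 0.37 and -0.14 in the sham standard, sham ActD, 3 dpi and 14 dpi libraries, a mean of 0.11 ± 0.22 (SD, n = 4, exact two-sided sign-flip test p = 0.375). The 4 libraries are of different conditions and the test cannot go below 0.125, so nothing is concluded from it. In the same order, the medians of the log2 ratios of the 10 genes were 0.37, 0.50, 0.13 and -0.09. With the border cluster as the only macrophages, the log2 ratio of the sums at 3 dpi was 0.67. Single genes did differ within libraries beyond counting error. H2-D1 was higher in macrophages of all 4 libraries, by 0.50, 0.67, 0.98 and 0.15 on the log2 scale, and Tap2 was lower in all 4, at -0.59, -0.32, -0.32 and -0.26. B2m was lower in macrophages in the 2 sham libraries and at 14 dpi and higher at 3 dpi (0.23).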

How the data were processed

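The cells were profiled with droplet-based 3′ sequencing. The authors deposited whole-number UMI counts per gene and cell barcode for each library, aligned to mm10 with Cell Ranger per the labels, without normalization. The lowest deposited barcode held 500 UMIs. Barcodes under 600 genes or over 10% mitochondrial UMIs were dropped, as were those with Itgam and a lymphoid marker, and doublets were taken out by simulated-doublet scores at 0.8% per 1000 barcodes. The libraries were integrated in Seurat 5.3.0 (2000 features, 50 dimensions, k.filter 200) without the listed genes and clustered at a resolution of 0.6. A cluster with at least 20 cells in a library was named from at least 3 markers, and the thresholds of naming were set after clusters had been seen. The 10 genes and all lists were chosen with earlier results of these data known. UMIs were summed per class and library (SciPy 1.17.1). Ratios carry exact conditional intervals, and ratios of sums over the 4 libraries an exact two-sided sign-flip test. The ratio step was tested on simulated data. Libraries shared at most 0.562% of the barcodes of the smaller one. Alternatives were other clusterings, cell filters, scalings and UMI minima, and each sex alone. From each list the 4 genes with the most UMIs in microglia and macrophages were named, and the 10 genes most like the mean profile, except 1 gene that is not reported here. TMM factors came from edgeR 4.0.16. A count of 0 in a ratio had 0.5 added to both.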

Additional observations from a re-analysis of the deposited data

Results flagged for a closer look

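The male over female difference of the summed 10 genes in microglia went one way in the sham standard library, at 0.12 on the log2 scale, and the other way in each ActD library, at -0.86 (sham ActD), -0.11 (3 dpi) and -0.29 (14 dpi). The protocol, the animals and the library cannot be told apart here. The release of the counting software also differed between the sham libraries, while it was shared by sham standard and 3 dpi, and the difference between the libraries was not tested.

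The step from 3 to 14 dpi also went in opposite directions between cell classes. The summed genes were higher at 14 dpi in microglia (log2 ratio 1.87), monocytes (1.41), macrophages (1.36), T cells (0.91), NK cells (0.61) and B cells (0.42), and lower in neutrophils (-0.49) and dendritic cells (-0.17). In neutrophils the median of all genes was lower still, at -0.66 beside -0.48 for the 9 genes compared. In B cells 3 of the 9 genes compared were below 0, and their median, 0.34, lay below that of all genes, 0.43. The B cells at 14 dpi included 271 and 59 cells of clusters other than the mature one, which held all 131 at 3 dpi. Within the mature cluster (131 and 288 cells) all 6 genes compared were above 0, with a median of 0.66 beside 0.29. The difference between classes was not tested. The dendritic cells of the 2 libraries were mostly of different clusters. In the neutrophil cluster with most of the 3 dpi cells, 6 of 7 genes were above their 3 dpi level at 14 dpi. In the other neutrophil clusters compared, 4 of 6 (302 and 327 cells) and 4 of 7 genes (28 and 597 cells) were below it.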

How the results depend on the processing

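With 1 library per condition, no replicate could be left out, and intervals cover counting error only. No paired analysis was possible because each condition has 1 library and the labels give no shared replicate numbers. Of the 10 genes in microglia, the count past 2-fold at 3 dpi against sham ActD, 8, was 3 with TMM factors or a median of ratios, 4 in male cells and 5 of 9 in the largest cluster alone (chosen after seeing the data; 31.4% of genes there were lower). In macrophages the same count, 8, was 4 with either scaling, in male cells and in the border cluster alone (chosen after seeing the data), where 14 over 3 dpi gave 3 in place of 7. The marker sums of that cluster also changed between these libraries. For 14 dpi against sham ActD in microglia, 0 became 1 with each library clustered alone or in the largest cluster, and 2 with TMM factors, a median of ratios or male cells. For sham standard against sham ActD, 1 became 2 with libraries clustered alone, the mean share per cell, no UMI minimum, male cells or the largest cluster, and 3 in female cells. H2-Q7 in male macrophages at 3 dpi reversed, to 0.34, within counting error (-1.23 to 2.62, 3 UMIs in sham ActD). The cause of these changes was not tested, except that TMM factors moved the median log2 ratio of all genes, at 3 dpi over sham ActD from -0.53 to -0.05 in microglia and from -0.34 to 0.29 in macrophages. In 3 dpi over sham ActD, 75.3% of the genes called in microglia were lower, against 47% with TMM factors, and in macrophages 66.8% against 29.3%. For 14 dpi over sham ActD these shares were 80.5% and 30.2% in microglia and 54.8% and 30.9% in macrophages, for 14 over 3 dpi 52.1% and 41.2% in microglia and 38.3% and 65.5% in macrophages, and for the sham libraries 80.8% and 35.6%. The mean male over female log2 ratio ranged from -0.39 to -0.27 and the mean macrophage over microglia ratio from 0.07 to 0.23. Depth limits Nlrc5 most, with 19 UMIs in sham ActD macrophages.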

Other observations

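Plasmacytoid dendritic cells, too few (39, 27 and 44 cells in the sham standard, 3 dpi and 14 dpi libraries) for the order of classes, held H2-Q7 at 666, 344 and 458 CPM and Psmb8 at 553, 683 and 718 CPM. Fibroblasts (39 cells at 3 dpi) had a summed level of the 10 genes of 897 CPM, the lowest of all class sums, with H2-K1 at 123 CPM. In the 20 oligodendrocytes of the sham ActD library H2-K1 stood at 529 CPM and B2m at 1384 CPM.

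Myeloid progenitors, found in the sham standard and 14 dpi libraries, had H2-K1 at 624 and 518 CPM and H2-D1 at 1094 and 925 CPM. In sham standard these were above microglia (603 and 964 CPM), and at 14 dpi below them (1002 and 1788 CPM). The progenitor sums held Psmb8 at 434 and 528 CPM and Psmb9 at 184 and 210.0 CPM, above those of microglia in the same libraries (164 and 336 CPM, and 44.6 and 95.3 CPM). The sham standard sum pooled 2 unlike clusters. In 249 cells H2-K1 was at 672, H2-D1 at 1132 and Psmb8 at 503 CPM, and in 65 cells at 444, 953 and 176 CPM. The 327 cells at 14 dpi were all of the first cluster. The unnamed cells of the 3 dpi library (617 cells) held Psmb8 at 496 CPM.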
